A study of Rattus norvegicus with 20 samples.

Results

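The FMRP, CYFIP and CPEB translation regulators are 9 genes, *Fmr1*, *Fxr1*, *Fxr2*, *Cyfip1*, *Cyfip2*, *Cpeb1*, *Cpeb2*, *Cpeb3* and *Cpeb4*, which were taken by symbol from the 31038 genes of the raw count matrix. The choice was by family membership, and earlier results of these data were known when it was made. All 9 passed the filter on low counts and were among the 16605 genes tested. They were measured in the medial prefrontal cortex (mPFC) of male Sprague-Dawley rats, an outbred strain. The LSD group held 10 rats injected intraperitoneally with LSD at 0.16 mg/kg, and the Saline group held 10 rats given sterile saline on the same schedule, every other day for 90 days. LSD is a psychedelic drug that activates serotonin receptors. The labels give 6 to 8 weeks of age, a weight of 180 to 200.0 g at the start and 3 weeks without drug before the brain was taken, whereas the methods of the study give somewhat older rats and a longer interval. These entries are the same for both groups, and no allele or transgene is listed for either. The mPFC of one hemisphere gave 1 poly(A)-selected RNA-seq library per rat, so each replicate is an animal, and the question addressed is which transcripts still differed weeks after the last injection.

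These genes act after transcription, on mRNAs that already exist. FMRP, the product of *Fmr1*, binds mRNAs in neurons and holds back their translation near synapses, and its loss causes fragile X syndrome, while the CYFIP proteins bind FMRP and the cap-binding factor eIF4E and also belong to the WAVE complex, which starts actin branching. CPEB proteins bind a short uridine-rich element in mRNA and, with poly(A) polymerases and deadenylases, lengthen or shorten the tail and so switch translation on or off, a step known for its part in synaptic plasticity and memory.

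The genes *Fmr1* and *Cpeb4* were the ones called between the groups, and the sequence just before their annotated starts is shown with that of *Cpeb1*, the CPEB paralogue whose values from rat to rat were nearly uncorrelated with those of the other 3. The windows are the 250 bases before the start in RefSeq on GRCr8, a newer build than the rn6 build of the counts, and are written from 5′ to 3′ on the gene's strand. The *Fmr1* window lies at chrX:152284680-152284929 on the plus strand, the *Cpeb4* window at chr10:16283589-16283838 on the minus strand and the *Cpeb1* window at chr1:144816264-144816513 on the minus strand. Capitals mark the E-box CACGTG, the site read by clock and MYC-family factors.
Fmr1: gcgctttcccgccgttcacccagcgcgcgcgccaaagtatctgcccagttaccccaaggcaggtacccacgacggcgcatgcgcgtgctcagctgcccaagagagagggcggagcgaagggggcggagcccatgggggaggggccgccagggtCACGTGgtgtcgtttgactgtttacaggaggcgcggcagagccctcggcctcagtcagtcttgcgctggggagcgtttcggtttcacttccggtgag
Cpeb4: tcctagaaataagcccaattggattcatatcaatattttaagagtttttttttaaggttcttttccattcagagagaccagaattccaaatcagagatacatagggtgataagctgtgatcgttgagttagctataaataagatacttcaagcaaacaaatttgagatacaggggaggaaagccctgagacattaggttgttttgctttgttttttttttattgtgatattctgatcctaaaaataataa
Cpeb1: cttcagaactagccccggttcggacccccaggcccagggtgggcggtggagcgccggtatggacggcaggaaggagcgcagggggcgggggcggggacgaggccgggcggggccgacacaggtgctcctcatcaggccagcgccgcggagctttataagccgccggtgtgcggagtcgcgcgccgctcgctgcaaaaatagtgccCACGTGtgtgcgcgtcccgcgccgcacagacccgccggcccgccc

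Over the 10 windows of the 9 genes, of which *Cpeb2* had 2, an E-box was present in the 2 of *Fmr1* and *Cpeb1* alone, and a GC box in 8. That of *Fmr1* was 66.8% G and C, with 1 E-box 97 bases before the start and 2 copies of the GC box GGGCGG. That of *Cpeb1* was 73.6% G and C, with 1 E-box 45 bases before the start and 5 GC boxes. The *Cpeb4* window was AT-rich, at 31.6% G and C against a median of 51.2% over 33469 promoters of the same length, and held neither motif. Both strands were searched, matches that share bases with another motif were kept, and 5.59% of all promoters held the E-box and 30.5% the GC box. The site TGACGT, read by CREB-family factors, was in no window of the 9 genes and in 6.95% of all promoters. A match describes these letters alone, and the start used in the mPFC of these rats was not measured.

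The libraries held 16346629 to 25552681 gene reads in LSD and 11098076 to 24201351 in Saline, and LSD libraries were the deeper ones (exact two-sided rank sum test, p = 0.0147). Levels are given below as the reads of a gene relative to the reads of its library, scaled by TMM and multiplied to the usual RPM unit (normalised RPM), which removes such differences in depth but not the length of the transcript, so levels are compared between rats and not between genes. Saline rats 2 and 9 stood at the edge of their group for several of the genes, and results were also computed without these 2 rats. Of 37 cell type marker genes, *Gad2* was higher (log2 fold change 0.23, adjusted p = 0.0369) and *Slc32a1* lower (-0.34, adjusted p = 0.0180) in LSD. Both are genes of inhibitory neurons, and the other 35 did not pass the test. The summed level of the markers overlapped between the groups for all 9 cell types, from 1812 to 2513 in LSD against 1926 to 2901 in Saline for the 4 excitatory neuron markers and from 0.890 to 8.10 against 1.34 to 11.5 for the 3 choroid plexus markers. The median of these sums was the lower one in LSD for each cell type. It was 3510 against 4350 for oligodendrocytes and 149 against 181 for striatal neurons, but nearly level for inhibitory neurons, at 562.97 against 563.01. In bulk tissue, fewer cells of a type and less RNA per cell cannot be told apart.

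Of the 9 genes, 2 were called higher in LSD and 0 lower at an adjusted p-value under 0.05 (edgeR quasi-likelihood test with Benjamini-Hochberg adjustment over all genes), and the genes called were *Cpeb4* and *Fmr1*. Over all tested genes, 6.48% were called higher and 8.54% lower. At an unadjusted p under 0.05 in the same test, 4 of the 9 genes were higher and 0 lower. Many genes pass that threshold: the largest of these 4 p-values, 0.0355 for *Cpeb1*, was the 4522nd smallest of the 16605 genes tested. DESeq2 called 3 genes higher, the third being *Fxr1*, and 0 lower, beside 8.18% and 10.51% of all genes. The log2 fold change was positive for 8 of the 9 genes, some of which varied together from rat to rat, and for 8368 of the 16605 genes tested. Its median was 0.11 over the 9 genes against 0.00 over all genes. By family the median was 0.34 for the 3 FMRP-family genes, 0.10 for the 2 CYFIP genes and 0.12 for the 4 CPEB genes. The median of the 9 genes moved with a correction for gene span, the distance between the start and end of a gene on GRCr8. Over all genes with a known span the log2 fold change rose with span, with a Spearman rho of 0.36 across genes, although genes do not stand for independent replicates. With a correction that levels each rat's counts along span, rho was 0.05 and the median of the 9 genes was 0.03 against -0.01 over all genes. The calls of *Fmr1* and *Cpeb4* held after that correction, and *Fmr1*, whose value is the FMRP-family median, then stood at 0.30.

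**Figure D1:**
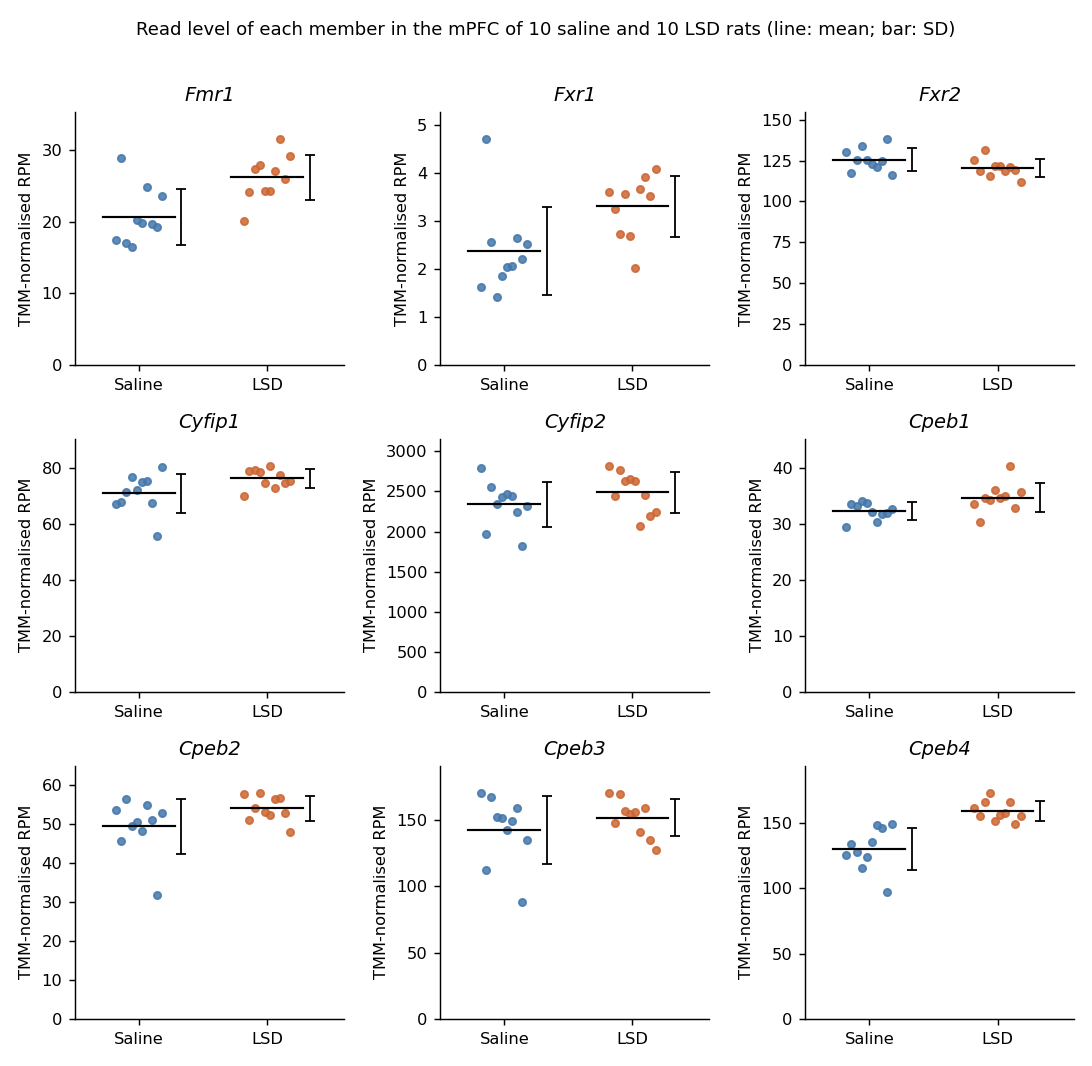
Normalised RPM of each of the 9 genes (vertical axes, each from 0) in 10 Saline and 10 LSD rats (horizontal axes); a point is 1 rat, the line is the group mean and the bar its SD. All LSD points of *Cpeb4* lie above all Saline points, from 149.2 to 173 against 97.4 to 149.0, whereas *Fxr2* and *Cpeb3* overlap over most of their range.

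*Fmr1* encodes FMRP itself, the repressor after which the group is named. Its level in LSD had a lowest value of 20.1, a median of 26.5 and a highest of 31.5 normalised RPM, against 16.4, 19.7 and 28.8 in Saline. Every LSD rat lay above the Saline median, but the groups overlapped, with 2 LSD rats above the highest Saline rat and Saline rat 2 the only one of its group above 25. The mean was 26.2 ± 3.17 normalised RPM in LSD against 20.7 ± 3.91 in Saline (SD, n = 10 each), a rise of 26.3%, and the log2 fold change was 0.34 (SE 0.094, 95% interval 0.15 to 0.52, adjusted p = 0.0215). With the span correction it was 0.30 (adjusted p = 0.0345), and after drawing all libraries down to 11098076 reads it was 0.32 (adjusted p = 0.0247). Leaving out any 1 of the 20 rats kept the call, with values between 0.30 and 0.40, and without Saline rats 2 and 9 the value was 0.40.

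*Fxr1* and *Fxr2* encode the autosomal paralogues of FMRP, which bind RNA and one another through related domains. *Fxr1* was counted at only 20 to 118 reads per rat, so that its values carry more counting error than those of the other 8 genes. It ranged from 2.02 to 4.07 normalised RPM in LSD, with a median of 3.54, and from 1.42 to 4.70 in Saline, with a median of 2.14. The highest of all 20 values was that of Saline rat 2, while 9 of 10 LSD rats lay above the Saline median. The log2 fold change of 0.46 (SE 0.17, interval 0.12 to 0.79) had an adjusted p of 0.0742 in edgeR and did not pass the test. The call turned on the setting: without Saline rat 2 the log2 fold change was 0.64 (adjusted p = 0.00367), without LSD rat 6, the lowest of its group, 0.51 (adjusted p = 0.0444), and DESeq2 gave 0.46 (adjusted p = 0.0449), whereas the span correction gave 0.41 (adjusted p = 0.108). How much of the gene's transcript this row captures was not tested.

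*Fxr2* was the only gene of the 9 with a negative log2 fold change. Its level ran from 112 to 132 normalised RPM in LSD, with a median of 120.2, and from 116 to 138 in Saline, with a median of 125. The groups overlapped between 116 and 132, and 2 of the 10 LSD rats lay above the Saline median. The log2 fold change was -0.06 (SE 0.041, interval -0.14 to 0.02, adjusted p = 0.356) and did not pass the test. With total-count scaling it was -0.01. The interval leaves room for a loss of at most 0.14 and a gain of at most 0.02 on the log2 scale at this level of confidence.

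The balance between FMRP and its paralogues was compared within each rat, as the log2 ratio of their reads, which needs no scaling between rats. It was tested by a two-sided permutation test with 100000 resamples and adjustment over the 6 ratios examined. *Fmr1* over *Fxr2* had a lowest value of -2.64, a median of -2.23 and a highest of -1.94 in LSD, against -3.02, -2.65 and -2.02 in Saline. All 10 LSD rats lay above the Saline median, although the ranges overlapped, and Saline rat 2 was the highest of its group. The means were -2.21 ± 0.21 and -2.62 ± 0.32 (SD, n = 10 each), and the difference of 0.41 (SE 0.12) had an adjusted permutation p of 0.0251, or 0.0328 with the span correction. An exact rank sum test gave 0.0690, and the call was lost without Saline rat 1, 3, 4 or 9, each time with an adjusted p between 0.0527 and 0.0570. For *Fmr1* over *Fxr1* the difference was -0.17 (SE 0.14, adjusted permutation p = 0.487).

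*Cyfip1* encodes the FMRP partner that can also bind eIF4E, and *Cyfip2* its close relative, best known as a WAVE complex subunit in neurons. *Cyfip1* ran from 70.0 to 80.9 normalised RPM in LSD, with a median of 76.5, and from 55.6 to 80.3 in Saline, with a median of 71.9. Above the Saline median lay 9 of 10 LSD rats, and the lower end of Saline was set by rat 9. The log2 fold change was 0.11 (SE 0.053, interval 0.00 to 0.21, adjusted p = 0.179), and it was 0.06 without Saline rats 2 and 9 and 0.03 with the span correction. *Cyfip2* ran from 2067 to 2819 normalised RPM in LSD, with a median of 2538, and from 1823 to 2797 in Saline, with a median of 2388. The ranges nearly coincided, and its log2 fold change of 0.09 (SE 0.073, interval -0.05 to 0.23, adjusted p = 0.436) was 0.01 with the span correction and 0.02 without Saline rats 2 and 9. Within rats, *Cyfip1* over *Cyfip2* differed by 0.02 (SE 0.069, adjusted permutation p = 0.950).

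*Cpeb1* encodes the founding member of the CPEB family, whose phosphorylation turns it from a repressor into an activator of polyadenylation. Its values had a narrow spread, from 30.4 to 40.4 normalised RPM in LSD, with a median of 34.6, and from 29.5 to 34.2 in Saline, with a median of 32.4. The highest Saline rat was below 7 of the 10 LSD rats, and 9 lay above the Saline median. The log2 fold change was nevertheless small, at 0.10 (SE 0.047, interval 0.01 to 0.20), and with an unadjusted p of 0.0355 and an adjusted p of 0.130 it did not pass the test. It was 0.15 with total-count scaling and 0.02 with the span correction.

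*Cpeb2*, *Cpeb3* and *Cpeb4* encode the other branch of the family, of which CPEB3 is known for control of AMPA receptor mRNAs and for memory storage. *Cpeb2* ran from 47.9 to 58.0 normalised RPM in LSD, with a median of 53.6, and from 31.7 to 56.4 in Saline, with a median of 50.7. Only Saline rat 9, at 31.7, lay outside the range of 45.5 to 58.0 that held the other 19 rats. The log2 fold change was 0.13 (SE 0.073, interval -0.01 to 0.27, adjusted p = 0.241), and without Saline rats 2 and 9 it was 0.05. *Cpeb3* ran from 128 to 171 normalised RPM in LSD, with a median of 156, and from 88.0 to 171 in Saline, with a median of 151. Its low end was again set by Saline rats 9 and 2, at 88.0 and 112. Its log2 fold change of 0.09 (SE 0.091, interval -0.09 to 0.27, adjusted p = 0.543) was 0.00 with the span correction and -0.01 without those 2 rats, so no direction can be given.

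*Cpeb4*, whose transcript is known to respond to neuronal activity, differed most clearly. Its level in LSD had a lowest value of 149.2, a median of 157 and a highest of 173 normalised RPM, and in Saline 97.4, 131 and 149.0. In normalised RPM every LSD rat lay above every Saline rat, which was true of 0.108% of the tested genes, 18 of 16605. The nearest rats of the 2 groups were almost level, and the full separation depended on the TMM scaling. By share of gene reads alone, LSD rat 5 (3041 of 20167578) lay below Saline rat 10 (2962 of 19368354). The mean was 159 ± 7.42 in LSD against 130.2 ± 16.01 in Saline (SD, n = 10 each), a rise of 22.02%, and the log2 fold change was 0.29 (SE 0.062, interval 0.17 to 0.41, adjusted p = 0.00704), the 251st smallest p of all genes. It held with the span correction (0.23, adjusted p = 0.0106), at equal depth (0.30, adjusted p = 0.00746), without Saline rats 2 and 9 (0.25, adjusted p = 0.00430) and after removal of any single rat, at 0.25 to 0.31. The Saline rats were the more spread of the groups, with an SD of 16.01 against 7.42, and the lowest was again rat 9.

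**Figure D2:**
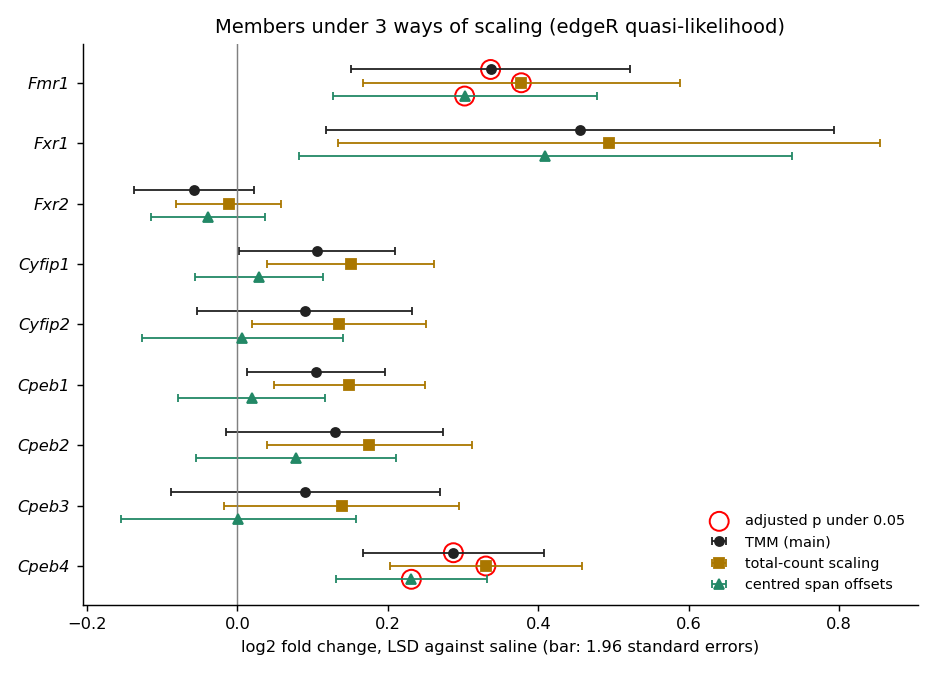
Log2 fold change of each gene, LSD against Saline (horizontal axis), from edgeR under TMM scaling, total-count scaling and the centred span correction, with bars for the 95% interval and red rings at an adjusted p under 0.05. The rings fall on *Fmr1* and *Cpeb4* under all 3 settings, and the values of *Cyfip1*, *Cyfip2*, *Cpeb1* and *Cpeb3* lie between 0.00 and 0.03 with the span correction.

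Among CPEB transcripts, the ratio within rats passed the permutation test for 1 of 3 pairs. *Cpeb1* over *Cpeb4* ran from -2.35 to -2.04 on the log2 scale in LSD, with a median of -2.17, and from -2.29 to -1.61 in Saline, with a median of -2.03. All 10 LSD rats lay below the Saline median. The difference of -0.19 (SE 0.075, means -2.19 ± 0.11 and -1.999 ± 0.21, SD, n = 10 each) had an adjusted permutation p of 0.0461, and of 0.0328 with the span correction. This call was near the threshold. Comparing rats of the same number in pairs, by a sign-flip test, gave an adjusted p of 0.146. An exact rank sum test gave an adjusted p of 0.157, and the call was lost on leaving out any of LSD rats 1, 2, 3, 4, 6, 7 and 9 or Saline rats 1, 2, 3, 4, 5, 6 and 9, so that it held in 6 of 20 such comparisons. Without Saline rats 2 and 9 the difference was -0.14 (adjusted permutation p = 0.156). *Cpeb1* over *Cpeb2* differed by -0.04 (SE 0.089) and *Cpeb1* over *Cpeb3* by -0.01 (SE 0.11), with adjusted permutation p-values of 0.950 and 0.953. Without Saline rats 2 and 9 these differences were 0.057 and 0.12, so neither has a settled direction.

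**Figure D3:**
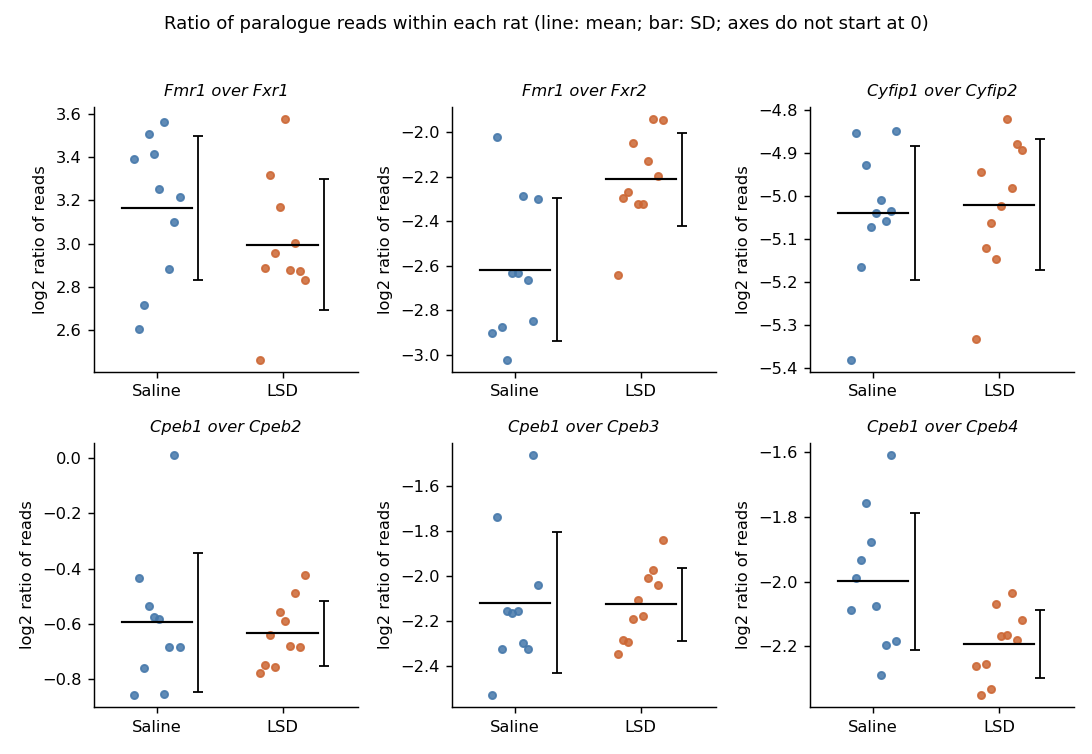
Log2 ratio of the reads of paralogous genes within each rat (vertical axes, which do not start at 0) in 10 Saline and 10 LSD rats; a point is 1 rat, the line is the group mean and the bar its SD. *Fmr1* over *Fxr2* averages -2.21 in LSD and -2.62 in Saline, *Cpeb1* over *Cpeb4* averages -2.19 and -1.999, and the remaining ratios overlap over most of their range.

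The 9 genes did not all vary together from rat to rat, although some of them did. After each group's mean was subtracted, *Cpeb3* correlated with *Cyfip2* at a Pearson r of 0.87 and with *Cpeb2* at 0.87 over the 20 rats, and *Cpeb4* with *Cpeb2* at 0.73. *Cpeb1* stood apart from its paralogues, with r between -0.04 and 0.02. *Fmr1* went with *Fxr1* at 0.60 and against *Fxr2* at -0.60, and *Cpeb4* also went against *Fxr2* at -0.60. These values describe 20 libraries that differ in depth and in the span trend, and Saline rats 2 and 9 weigh in them.

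Genes whose pattern over the 20 rats was most like that of each member were sought over all tested genes by the same group-centred r. For *Fmr1* they were *Senp6*, which encodes a SUMO protease, at an r of 0.93 (Spearman rho 0.87), the uncharacterised *RGD1309995* at 0.92 (rho 0.83) and the zinc finger gene *Zfp644* at 0.91 (rho 0.90). For *Cpeb4* they were *Bmpr2*, which encodes a receptor for bone morphogenetic proteins, at 0.96 (rho 0.92), *Myo9a*, an unconventional myosin gene, at 0.95 (rho 0.85) and *Aff4*, which encodes a scaffold of the super elongation complex, at 0.93 (rho 0.86). These 6 genes had log2 fold changes between 0.27 and 0.43 and were called higher in LSD as well, beside 6.48% of all tested genes. They were picked for likeness to 2 called genes, so their calls are not separate evidence. Within LSD alone, r with *Cpeb4* was 0.77 for *Bmpr2*, 0.68 for *Myo9a* and 0.56 for *Aff4*. Within Saline, where *Cpeb4* was more spread and rat 9 lowest at 97.4 normalised RPM, it was 0.99, 0.98 and 0.97. The r of the *Fmr1* neighbours ran from 0.83 to 0.87 within LSD and from 0.95 to 0.96 within Saline. For the genes that were not called, the nearest were *Dars* for *Fxr1* (r 0.85), *Adrm1* for *Fxr2* (0.90), *Sphkap* for *Cyfip1* (0.88), *Rapgef2* for *Cyfip2* (0.95), *Rprd1a* for *Cpeb1* (0.74), *Ubr2* for *Cpeb2* (0.91) and *Arfgef2* for *Cpeb3* (0.97). Without the 2 rats farthest from the member's median, r was 0.64 for *Ubr2*, 0.61 for *Rprd1a* and between 0.76 and 0.93 for the remaining 11 genes.

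Genes that work with FMRP, CYFIP and CPEB were grouped into 7 lists of partners, complexes and target mRNAs, together 147 tested genes, which were also drawn up with earlier results known. Of these, 23 were called higher in LSD and 4 lower, beside 6.48% and 8.54% of all genes, and their median log2 fold change was 0.03. With the span correction the counts were 6 higher and 6 lower, of which 6 and 3 had also been called without it. The shares over all genes were then 4.04% higher and 7.03% lower. Without Saline rats 2 and 9 the counts were 28 higher and 17 lower, beside 11.17% and 11.51% of all genes. Fewer were higher without LSD rat 3, 7 or 8 or Saline rat 1, 3, 4 or 5, at 10 to 15 genes. Over all genes the higher share in those fits was also smaller, at 4.02% to 5.22%. The lower count was 2 without LSD rat 2, 3 or 4 or Saline rat 1, 4 or 5, beside 5.77% to 6.98% of all genes. It was 8 without LSD rat 1 or Saline rat 10, beside 9.60% and 10.74%, and 14 without Saline rat 2, beside 11.55%. Of the genes first counted, 10 of the 23 and 2 of the 4 were called in all 20 comparisons with 1 rat left out.

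Among 26 FMRP partners and proteins of neuronal RNA granules, 4 were higher and 1 lower, with a median of 0.06. *Purb*, which encodes a single-strand nucleic acid binding protein found in transport granules, averaged 136 ± 15.6 normalised RPM in LSD against 104 ± 16.6 in Saline (log2 fold change 0.39, adjusted p = 0.00902). *Nufip2*, which encodes an FMRP-binding protein, was higher by 0.37 (adjusted p = 0.0167), *Pum2*, a translational repressor gene, by 0.22 (adjusted p = 0.0264) and *Purg*, related to *Purb*, by 0.24 (adjusted p = 0.0419). *Eif4ebp1*, which encodes a repressor that sequesters eIF4E, was the gene that was lower, at 9.60 ± 1.14 against 12.3 ± 2.30 normalised RPM (log2 fold change -0.35, adjusted p = 0.0205). *Purb*, *Nufip2* and *Eif4ebp1* also passed with the span correction, and *Pum2* and *Purg* did not (adjusted p = 0.0951 and 0.0579).

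Around the CYFIP proteins, 3 of 9 WAVE complex genes were higher and 0 lower, while the list's median was -0.05. The 3 were the Abl interactor genes *Abi2* (log2 fold change 0.23, adjusted p = 0.0114) and *Abi1* (0.26, adjusted p = 0.0318) and *Nckap1*, whose product pairs with CYFIP in the complex (0.17, adjusted p = 0.0378). None of them passed with the span correction, where their adjusted p lay between 0.0764 and 0.179. Among 20 genes of Rac signalling and actin nucleation, with a median of -0.07, *Pak3*, which encodes a kinase activated by Rac, was higher at 0.29 (adjusted p = 0.0379, or 0.155 with the correction). The Arp2/3 subunit genes *Arpc4* and *Arpc2* were lower at -0.24 (adjusted p = 0.0165) and -0.16 (adjusted p = 0.0298), and both passed with the correction.

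Around the CPEB proteins, 5 of 34 genes of the polyadenylation and deadenylation machinery were higher and 0 lower, with a median of 0.08. *Cpsf2*, which encodes a subunit of the factor that recognises polyadenylation signals, was higher at 0.25 (adjusted p = 0.0152), and *Papd4*, which encodes the cytoplasmic poly(A) polymerase GLD2, at 0.26 (adjusted p = 0.0299). *Wdr33*, another subunit gene of that factor, stood at 0.15 (adjusted p = 0.0320), and the deadenylase complex genes *Cnot4* and *Cnot1* at 0.19 (adjusted p = 0.0354) and 0.18 (adjusted p = 0.0483). With the span correction *Cpsf2* alone passed. A further list held 18 kinases, phosphatases and ubiquitin ligases that act on FMRP, CPEB or eIF4E, with a median of -0.05. *Rps6kb1*, which encodes the S6 kinase reported to phosphorylate FMRP, was higher at 0.31 (adjusted p = 0.0123). *Mknk2*, which encodes a kinase of eIF4E, was lower at -0.19 (adjusted p = 0.0433). The span correction kept the first and not the second (adjusted p = 0.0235 and 0.108), and *Camk2b*, a calcium/calmodulin kinase gene, was then lower at -0.24 (adjusted p = 0.0200).

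**Figure D4:**
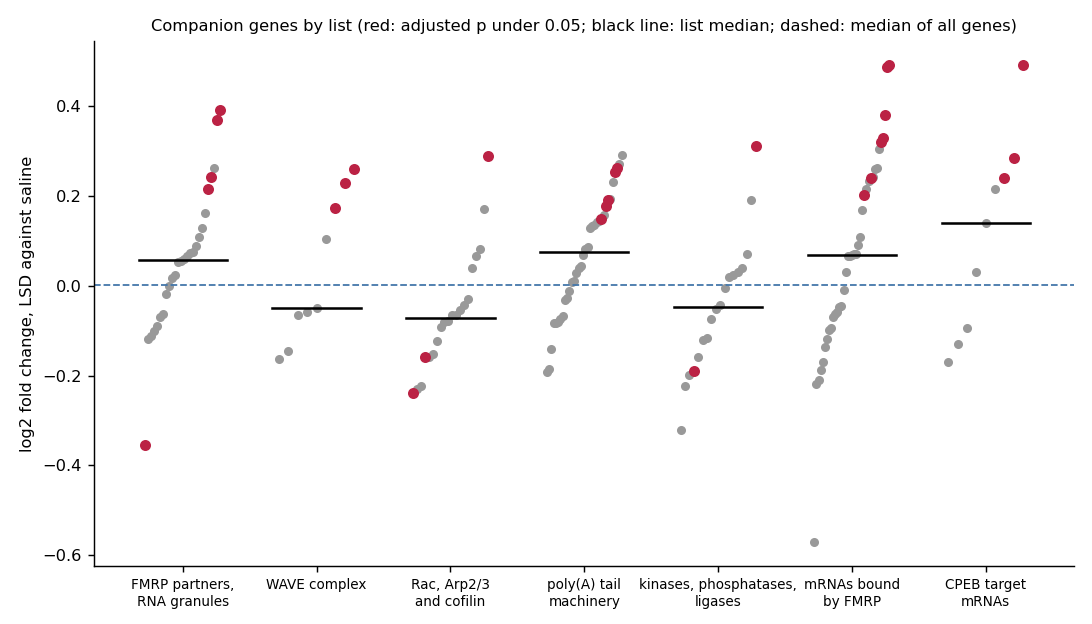
Log2 fold change, LSD against Saline (vertical axis), of the tested genes of 7 lists (horizontal axis); a point is 1 gene, red where the adjusted p was under 0.05, the black line is the list's median and the dashed line the median of all genes. List medians lie between -0.07 and 0.14, and 23 genes are red above 0 and 4 below, with *Grin2a* drawn in 2 lists.

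Of 37 brain mRNAs known to be bound by FMRP, 7 were higher in LSD and 0 lower, with a median of 0.07 that became -0.01 with the span correction. The list is one of long genes, with a median span of 109454 bases against 24494 over all genes. *Grin2a*, which encodes an NMDA receptor subunit, averaged 106 ± 16.2 normalised RPM in LSD against 75.1 ± 16.3 in Saline (log2 fold change 0.49, adjusted p = 0.0125). *Nf1*, which encodes the Ras regulator neurofibromin, was higher at 0.38 (adjusted p = 0.0120), *Grm5*, which encodes a metabotropic glutamate receptor tied to FMRP function, at 0.32 (adjusted p = 0.0284) and the potassium channel gene *Kcnd2* at 0.24 (adjusted p = 0.00757). The other 3 were *Pclo*, *Kcnma1* and *Nlgn1*, at 0.49, 0.33 and 0.20. *Grin2a* and *Nf1* passed with the span correction and the remaining 5 did not, and the postsynaptic scaffold gene *Dlgap3* was then lower at -0.28 (adjusted p = 0.0444). Of 9 mRNAs reported as CPEB targets, 3 were higher and 0 lower, with a median of 0.14, and 0.03 with the correction. They were *Grin2a*, the AMPA receptor gene *Gria2* (0.24, adjusted p = 0.0174) and *Map2*, which encodes a dendritic microtubule protein (0.29, adjusted p = 0.0178). With the span correction *Gria2* and *Map2* did not pass (adjusted p = 0.0587 and 0.0663), and the list held 1 higher gene, *Grin2a*, and 1 lower, *Plat*, which encodes tissue plasminogen activator (-0.20, adjusted p = 0.0466). The part that gene span plays in these counts was not tested beyond the corrected values given.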

How the data were processed

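RNA from the mPFC of 20 rats, 10 per group, was sequenced with 1 library per rat, and groups were taken from the sample labels. Per the study's methods and the labels, TrimGalore was used for trimming, HISAT2 for alignment to rn6 (Rnor_6.0) and HTSeq-count for counting, and the values the authors deposited are unnormalised counts of reads per gene. Versions, annotation and strand setting are not given in the sources used here, so reads of paralogues and of antisense genes may be shared or lost. The matrix ended with 5 unnamed rows, between 25.5% and 29.0% of all reads of a library, which were left out. No pair of libraries held identical values.

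Genes reaching 5 reads in 10 or more libraries, the filter of the study, were tested with edgeR 4.0.16 in R 4.3.3 (TMM, quasi-likelihood F test, Benjamini-Hochberg adjustment over 16605 genes, threshold 0.05). The precision of a value is set by the 10 rats of a group, and intervals are 95%. Ratios within a rat used log2 of reads with 0.5 added and a permutation test in scipy 1.17.1. The span correction took each rat's mean log2 deviation in 50 bins along span, smoothed it over 5 bins, centred it and entered it as an offset, for the 14937 genes whose symbol has a span in the RefSeq annotation of GRCr8. Other settings tried were total-count scaling, DESeq2 1.42.0 and its size factors in edgeR, other filters, 1 surrogate variable from sva 3.50.0, a draw to equal depth, the replicate number as a block, each rat left out in turn and, chosen after seeing the data, Saline rats 2 and 9 left out together. The fits were tested on simulated counts.

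The members and the lists were chosen with earlier results of these data known. Named genes are the 9 members, up to 4 genes per list and direction with the smallest p among those called, and the gene with the most similar pattern to each member (3 for members called). *Cnot1*, *Pclo*, *Kcnma1*, *Nlgn1*, *Camk2b*, *Dlgap3* and *Plat* were added after their values were seen. Promoter windows of 250 bases came from RefSeq on GRCr8, where all 9 members matched. *Cpeb2* had 2 windows there.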

Additional observations from a re-analysis of the deposited data

Results flagged for a closer look

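Each group of 10 rats was examined for a rat at its edge whose distance to the nearest other rat exceeded Dixon's 95% critical share of the group's range, for the 9 genes and the 6 ratios. Of 30 groups 4 held such a rat, and chance gives about 1 in 20 for a single group. The 30 groups are not independent, because the ratios use the reads of the same genes. Saline rat 2 had the highest *Fxr1* level of its group, at 4.70 normalised RPM against 2.63 in the next rat. Saline rat 9 had the lowest level of *Cyfip1*, at 55.6 against 67.2, and of *Cpeb2*, at 31.7 against 45.5. The same rat had the highest log2 ratio of *Cpeb1* over *Cpeb2*, which uses those *Cpeb2* reads, at 0.014 against -0.43 in the next rat. The median correlation of its log2 levels with the other 19 libraries was 0.985, the lowest of all, where the highest was 0.992. What sets these rats apart was not tested.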

How the results depend on the processing

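*Fmr1* and *Cpeb4* were called in all 11 alternatives and all 20 comparisons with 1 rat left out, and *Fxr2*, *Cyfip1*, *Cyfip2*, *Cpeb1*, *Cpeb2* and *Cpeb3* in none. *Fxr1* passed at 0.46 with DESeq2, 0.50 with the replicate block and 0.65 without Saline rats 2 and 9, and ran from 0.40 to 0.64 with 1 rat left out. *Cpeb3* became -0.015 without Saline rats 2 and 9. For the 7 lists, the share of all genes called in the same direction is given in brackets. The 23 higher genes became 6 with the span correction (4.04%) and 13 with that and the replicate block (5.40%). They ran from 10 without LSD rat 8 (4.02%) to 32 without Saline rat 2 (10.11%). The 4 lower genes became 7 with DESeq2 (10.51%), 2 with total-count scaling (5.17%) and 2 with no filter (3.32%). They became 8 with the replicate block (9.67%), 9 with 1 surrogate variable (10.32%) and 10 with the span correction and the block (8.50%). Without Saline rats 2 and 9 they were 17 (11.51%). With 1 rat left out they ran from 2 to 14, the latter without Saline rat 2 (11.55%). The log2 ratio of *Fmr1* over *Fxr2* (0.41) did not pass the rank sum test and ran from 0.36 to 0.47. *Cpeb1* over *Cpeb4* did not pass with the rank sum test (-0.19), the replicate block (-0.19) or without Saline rats 2 and 9 (-0.14) and ran from -0.23 to -0.15. *Cpeb1* over *Cpeb3* became 0.0049 with the span correction and 0.12 without Saline rats 2 and 9, and ran from -0.052 to 0.066. *Cpeb1* over *Cpeb2* became 0.057 without these 2 rats and ran from -0.069 to 0.028, and *Cyfip1* over *Cyfip2* ran from -0.020 to 0.053. The causes were not tested. Over all genes, the 1076 higher and 1418 lower calls became 1504 and 858 with total-count scaling, 603 and 1050 with the span correction, and between 663 and 1669 higher and 957 and 1907 lower with 1 rat left out. Of 10 pairs of rats with the same number, 6 had an r over 0.1 (range -0.23 to 0.42), a count not made for rats of unlike number. The mean r was 0.13 for rats of the same number and -0.01 for rats of unlike number. Of 20 libraries, 3 correlated best with their own number. Whether the numbers pair the rats was not tested further. The replicate block gave 1355 higher and 1606 lower genes. Depth limits *Fxr1*, at 20 to 118 reads per rat, more than the other genes.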
